A study of Homo sapiens with 6 samples.

Results

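The regulators of the integrated stress response were followed in AC16 cells after doxorubicin. The set was 10 listed genes, taken by symbol from a table of 58299 gene IDs: the kinase genes EIF2AK3 and EIF2AK4, the transcription factor genes ATF4, ATF5, ATF3, DDIT3 and CEBPB, and the genes TRIB3, CHAC1 and PPP1R15A. Each symbol matched 1 ID, and all 10 genes passed the filter on low counts. AC16 is a human line made by fusing ventricular cardiomyocytes with transformed fibroblasts, so it models heart muscle only in part. Poly(A) RNA was sequenced from 3 samples given 100 nM doxorubicin for 48 h, and from 3 given the vehicle alone, 0.1% DMSO, for the same time. Doxorubicin is an anthracycline that traps type II topoisomerases on DNA. The series title places the experiment in a study of NRF2 and of protection from doxorubicin toxicity. The labels do not say whether the 3 samples of a group were separate cultures, and the spread on which each p-value rests may therefore be technical.

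Library totals lay between 17252862 and 19571731 counts. The first principal component separated the treatments and held 90.0% of the variance. Doxorubicin replicate 1 lay farther out on it, at 61.0, than replicates 2 and 3, at 51.8 and 50.9. Of 15 cardiomyocyte markers, only TTN passed the expression filter and 13 stayed under 1 CPM (counts scaled to a common library total) in every library. MYH6, MYH7, MYL2, TNNC1, MYL7, RYR2, NKX2-5 and MYBPC3 had 0 counts in all DMSO libraries, which allows up to 0.0543 CPM. All 10 fibroblast markers passed, and their summed level, most of it COL1A1, was 13970 to 16481 CPM in DMSO and 4518 to 7024 CPM in doxorubicin. Of the 10, 6 were called lower and POSTN was called higher. The 5 smooth muscle markers summed to 584 to 826 CPM in DMSO and 1044 to 1110 CPM in doxorubicin. SMTN (354 to 772 CPM), ACTA2 (8.81 to 67.3 CPM) and MYH11 were called higher, while TAGLN (309 to 216 CPM) and CNN1 (35.0 to 21.99 CPM) had lower means and were not called. The 6 endothelial markers summed to 14.5 to 16.7 CPM in DMSO and 9.43 to 11.0 CPM in doxorubicin. That fall was in TEK (14.01 to 7.12 CPM), while PECAM1 was called higher (0.309 to 1.06 CPM) and the other 4 had higher means. The sum was 1.96 to 2.81 CPM in DMSO and 2.96 to 3.47 CPM in doxorubicin for the 6 leukocyte markers. The part of these shifts in the results below was not tested. In bulk RNA, fewer cells of a type and less RNA per cell cannot be told apart.

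The integrated stress response links several kinds of stress to translation. Kinases that sense unfolded protein in the endoplasmic reticulum (PERK, from EIF2AK3), uncharged tRNA and stalled ribosomes (GCN2, from EIF2AK4), heme shortage or mitochondrial stress (HRI, from EIF2AK1) or double-stranded RNA (PKR, from EIF2AK2) phosphorylate the initiation factor eIF2. Bulk translation then slows, while the mRNAs of ATF4, ATF5, CHOP (from DDIT3) and GADD34 (from PPP1R15A) are translated better through their upstream open reading frames. ATF4 switches on amino acid and redox genes together with ATF3, CHOP, TRIB3 and CHAC1, and GADD34 recruits protein phosphatase 1 to eIF2 and closes the loop. In heart muscle the pathway is known from ischemia and pressure overload. RNA levels show neither eIF2 phosphorylation nor protein, which were not measured here.

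Sequence before the start sites was searched for binding motifs of these factors, because ATF4, ATF3, CHOP and C/EBPβ are basic leucine zipper proteins that bind related motifs. The RefSeq promoter windows (GRCh38.p14, 250 bases before to 50 after a start) held an entry for all 10 genes. Both strands were searched for TGATGNAA, the core of the composite C/EBP-ATF element through which ATF4 acts, and for TGACGTCA, the cAMP response element. The third motif was TGANTCA, a loose form of the AP-1 element that allows any base in the middle. The motifs differ in letters, and no match of one lay within a match of another in the stretches shown. The stretches below are printed 5′ to 3′ on the gene's strand with the match in capitals. CHAC1 and AARS1 carry the composite element on the other strand, so the printed strand reads TTGCATCA. The stretches show which of the 10 genes held a match, and the last 3 show the composite element in genes of the same pathway described later.
CHAC1, chr15:40953236-40953295, plus strand: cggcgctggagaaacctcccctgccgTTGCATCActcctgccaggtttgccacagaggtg
ATF3, chr1:212565190-212565249, plus strand: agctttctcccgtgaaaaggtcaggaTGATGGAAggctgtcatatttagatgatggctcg
PPP1R15A, chr19:48872337-48872396, plus strand: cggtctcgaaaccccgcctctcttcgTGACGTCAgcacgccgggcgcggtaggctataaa
DDIT3, chr12:57520723-57520764, minus strand: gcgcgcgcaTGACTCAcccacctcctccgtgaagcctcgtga
ATF5, chr19:49928692-49928750, plus strand: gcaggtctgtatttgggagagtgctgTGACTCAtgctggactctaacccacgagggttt
EIF2AK4, chr15:39933877-39933935, plus strand: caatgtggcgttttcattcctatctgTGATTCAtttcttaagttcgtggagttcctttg
AARS1, chr16:70289660-70289719, minus strand: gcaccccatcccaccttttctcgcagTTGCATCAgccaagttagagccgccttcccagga
CEBPG, chr19:33374045-33374104, plus strand: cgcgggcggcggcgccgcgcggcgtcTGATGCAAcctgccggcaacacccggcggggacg
PPP1R15B, chr1:204412011-204412067, minus strand: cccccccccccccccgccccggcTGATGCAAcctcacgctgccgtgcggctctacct

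The composite element was found in CHAC1, where its first base lay at -209 from the start. In ATF3 it lay at -191 from 1 of 2 starts, and the window of the other start held none. Of 27058 genes with a window, 4.48% held the composite element in at least 1 window. The cAMP response element was found in PPP1R15A, at -58, against 2.24% of genes. The AP-1 element was found in DDIT3, ATF5 and EIF2AK4, against 9.39% of genes. ATF4, TRIB3, CEBPB and EIF2AK3 held none of the 3 in these windows, which says only that the letters are not there. A match is a description, and binding was not measured.

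The quasi-likelihood F test of edgeR called all 10 genes higher with doxorubicin (adjusted p under 0.05) and none lower. Of the 15358 genes tested, 32.7% were called higher and 32.0% lower, 64.7% in all. Counts were scaled by the trimmed mean of M values (TMM), so changes are relative to the other genes, whose median log2 fold change was -0.0013. Of the 10, 6 were called at least 2-fold higher (DDIT3, ATF3, CHAC1, TRIB3, CEBPB and PPP1R15A), against 14.2% of tested genes. In 9 of the 10 the doxorubicin values lay wholly above the DMSO values, and ATF4 was the exception. Of tested genes, 69.1% had groups that did not overlap, counting both directions. The median log2 fold change of the 10 was 1.22, with a range of 0.19 to 3.24. The genes therefore differed widely in the size of their change, from 1.14-fold for ATF4 to 9.42-fold for DDIT3.

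**Figure D1:**
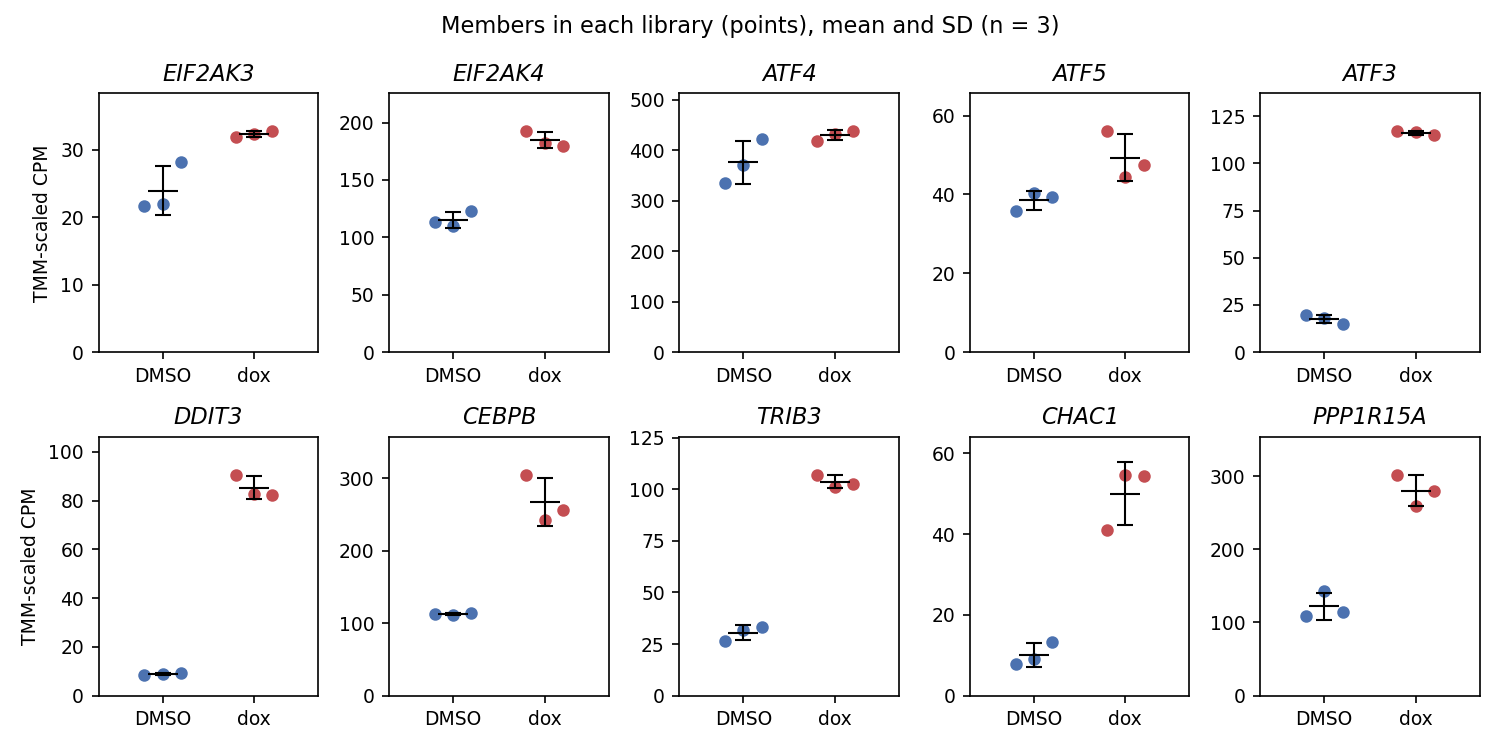
TMM-scaled CPM of each of the 10 genes (1 panel each, linear axes from 0) in the 3 DMSO libraries (blue points) and the 3 doxorubicin libraries (red points, "dox"), with mean and SD in black. The groups are apart in 9 panels and overlap only for ATF4, where DMSO replicate 3 is at 422 and doxorubicin replicate 1 at 419.

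The kinase genes EIF2AK3 and EIF2AK4 both rose by less than 2-fold. EIF2AK4 (chr15:39934146-40035591, GRCh38) encodes GCN2, the sensor of amino acid shortage. It stood at 113, 109.6 and 123 CPM in DMSO replicates 1 to 3 and at 193, 182 and 179 CPM in doxorubicin replicates 1 to 3. The doxorubicin values were all above the DMSO values, a 1.60-fold rise (log2 fold change 0.68 ± 0.06 SE, edgeR adjusted p = 1.2e-07). EIF2AK3 (chr2:88556741-88627576), which encodes PERK, stood at 21.7, 22.03 and 28.2 CPM in DMSO and at 32.0, 32.3 and 32.8 CPM in doxorubicin. Its rise was 1.35-fold (log2 fold change 0.43 ± 0.10 SE, edgeR adjusted p = 0.0012), and DMSO replicate 3 lay closest to the treated libraries. Another gene's exons share 15.1% of its exon bases, mostly an opposite-strand gene with 4 counts. The ratio of EIF2AK3 to EIF2AK4 was 0.191, 0.201 and 0.230 in DMSO and 0.166, 0.177 and 0.183 in doxorubicin. All 3 treated ratios were below the DMSO ratios (two-sided exact permutation p = 0.1, the smallest that 3 against 3 can give). The other eIF2 kinase genes were not called: EIF2AK1 had a log2 fold change of 0.02 ± 0.06 SE (edgeR adjusted p = 0.75), and EIF2AK2 one of 0.05 ± 0.07 SE (edgeR adjusted p = 0.56).

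ATF4 and ATF5 had the smallest fold changes of the 10 genes at the RNA level. The pathway controls the translation of both, but also that of DDIT3 and PPP1R15A, whose RNA rose 9.42-fold and 2.29-fold. ATF4 (chr22:39519695-39522685) stood at 336, 371 and 422 CPM in DMSO and at 419, 432 and 438 CPM in doxorubicin. The DMSO libraries were spread more widely than the treated ones, and the highest of them exceeded the lowest treated library. The rise was 1.14-fold (log2 fold change 0.19 ± 0.07 SE, edgeR adjusted p = 0.032). In edgeR it was not called without DMSO replicate 1 (log2 fold change 0.11, edgeR adjusted p = 0.20) or without DMSO replicate 2 (0.17, edgeR adjusted p = 0.12). It was not called either without doxorubicin replicate 2 or 3 (0.19 in both, edgeR adjusted p = 0.075 and 0.076), nor by DESeq2 (0.18, DESeq2 adjusted p = 0.055). ATF5 (chr19:49928702-49933935), a close relative that also carries upstream reading frames, stood at 35.9, 40.3 and 39.3 CPM in DMSO and at 56.1, 44.5 and 47.5 CPM in doxorubicin. Doxorubicin replicate 1 was the highest, and the groups did not overlap. The rise was 1.28-fold (log2 fold change 0.36 ± 0.09 SE, edgeR adjusted p = 0.0022). Some 23.7% of ATF5 exon bases are shared with other genes, mostly with opposite-strand NUP62, which had 17054 counts over the 6 libraries against 4806. The libraries carry no strand, so the share of ATF5 counts that came from NUP62 reads cannot be told apart in either group.

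DDIT3 (chr12:57516588-57521737, minus strand) encodes CHOP, a factor that ATF4 induces and that favours cell death when stress lasts. It rose the most of the 10. It stood at 8.66, 9.06 and 9.39 CPM in DMSO and at 90.7, 82.7 and 82.3 CPM in doxorubicin. The DMSO libraries were tightly grouped and every treated library was far above them, a 9.42-fold rise (log2 fold change 3.24 ± 0.08 SE, edgeR adjusted p = 2.9e-14). Only 2.93% of tested genes had a larger log2 fold change.

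DDIT3 overlaps MARS1, the cytosolic methionyl-tRNA synthetase gene, on the opposite strand, and the libraries carry no strand, so reads from shared bases cannot be assigned to either gene. Of the 1307 exon bases of DDIT3, 39.6% are shared with other genes, and 355 of them with MARS1: 287 from 4168 to 4454 bases after the 5′ end of DDIT3, and 68 at its 3′ end. MARS1 had 21324 counts in all and DDIT3 5132. MARS1 stood at 189.6, 202 and 227 CPM in DMSO and at 168, 189.5 and 189.3 CPM in doxorubicin. Its groups nearly touched, and the direction was opposite to that of DDIT3 (log2 fold change -0.18 ± 0.07 SE, edgeR adjusted p = 0.046). The MARS1 call was lost in 10 of 14 alternative analyses, 5 of which left out a library (DMSO replicate 2 or 3, or doxorubicin replicate 1, 2 or 3; adjusted p up to 0.22). The ratio of DDIT3 to MARS1 was 0.0457, 0.0448 and 0.0414 in DMSO and 0.538, 0.436 and 0.435 in doxorubicin (two-sided exact permutation p = 0.1, the smallest possible). The share of DDIT3 counts that came from MARS1 reads cannot be told apart in either group.

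**Figure D2:**
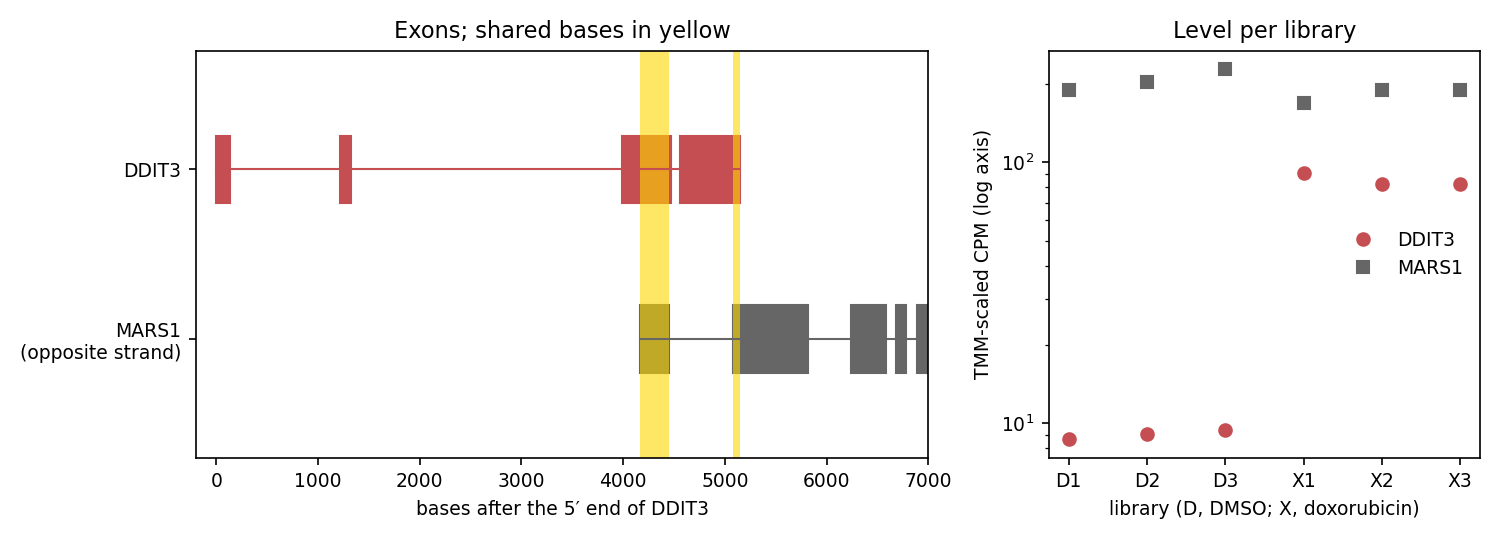
Left, exons (boxes) of DDIT3 and of opposite-strand MARS1 by distance in bases from the 5′ end of DDIT3, with shared bases in yellow. Right, TMM-scaled CPM of both genes in each library on a log axis, where DDIT3 goes from 8.66 to 9.39 in DMSO (D1 to D3) to 82.3 to 90.7 in doxorubicin (X1 to X3) and MARS1 stays between 168 and 227.

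ATF3 and CEBPB, the other leucine zipper factors of the set, both rose. ATF3 (chr1:212565334-212620777), an early stress factor that ATF4 induces and that p53 is also known to induce, stood at 19.6, 18.1 and 15.02 CPM in DMSO and at 117, 117 and 115 CPM in doxorubicin. The treated libraries were nearly equal and far above the DMSO libraries, a 6.61-fold rise (log2 fold change 2.72 ± 0.09 SE, edgeR adjusted p = 2.2e-13). No other gene's exons overlap those of ATF3. CEBPB (chr20:50190734-50192689) encodes C/EBPβ, a partner of ATF4 and CHOP that also drives inflammatory genes. It stood at 113, 112 and 114 CPM in DMSO and at 305, 242 and 256 CPM in doxorubicin. The DMSO libraries were alike, while doxorubicin replicate 1 exceeded the other treated libraries. The rise was 2.37-fold (log2 fold change 1.25 ± 0.08 SE, edgeR adjusted p = 9.3e-10).

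The 3 downstream effector genes rose as well. TRIB3 (chr20:362835-397559), a pseudokinase gene whose product binds ATF4 and AKT and dampens them, stood at 26.3, 31.8 and 33.4 CPM in DMSO and at 107, 101 and 102 CPM in doxorubicin, with no overlap. That was a 3.39-fold rise (log2 fold change 1.76 ± 0.08 SE, edgeR adjusted p = 2.5e-11). CHAC1 (chr15:40952962-40956519) encodes an enzyme that degrades glutathione in the cytosol. It stood at 7.77, 9.17 and 13.3 CPM in DMSO and at 40.9, 54.7 and 54.3 CPM in doxorubicin. CHAC1 was the most variable of the 10 within groups, with DMSO replicate 3 high and doxorubicin replicate 1 low, yet its lowest treated library was above all DMSO libraries. The rise was 4.96-fold (log2 fold change 2.31 ± 0.20 SE, edgeR adjusted p = 1.3e-05). PPP1R15A (chr19:48872392-48876057), which encodes the stress-induced phosphatase subunit GADD34, stood at 109, 143 and 114 CPM in DMSO and at 302, 259.5 and 279 CPM in doxorubicin. DMSO replicate 2 was the highest of its group and remained far below every treated library. The rise was 2.29-fold (log2 fold change 1.20 ± 0.10 SE, edgeR adjusted p = 3.2e-07).

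**Figure D3:**
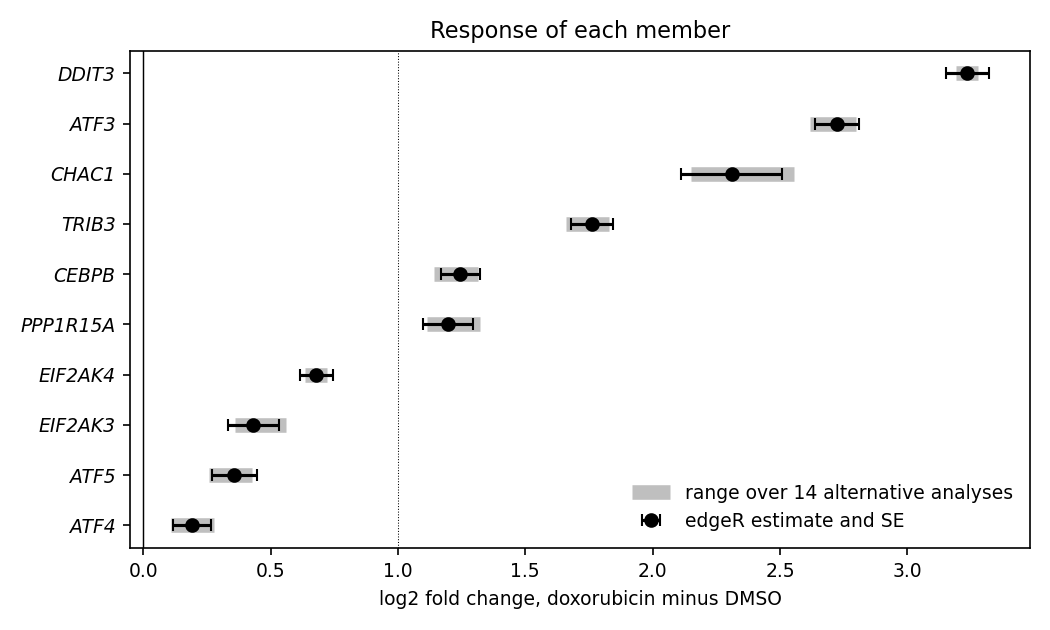
Log2 fold change (doxorubicin minus DMSO) of each of the 10 genes with its SE (black) and the range of the estimate over 14 alternative analyses (grey bars), ordered by size, with a dotted line at a 2-fold change. DDIT3 is highest at 3.24 and ATF4 lowest at 0.19, and no range crosses 0.

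The closest relatives of the effector genes did not all move with them. PPP1R15B, the constitutive counterpart of PPP1R15A, stood at 96.3, 104 and 105 CPM in DMSO and at 101, 107 and 103 CPM in doxorubicin, with overlapping groups (log2 fold change 0.02 ± 0.06 SE, edgeR adjusted p = 0.76). The ratio of PPP1R15A to PPP1R15B was 1.13, 1.37 and 1.09 in DMSO and 2.98, 2.44 and 2.72 in doxorubicin (two-sided exact permutation p = 0.1, the smallest possible). Both held a match to a leucine zipper motif in their windows, as printed above, PPP1R15B to the composite element and PPP1R15A to the cAMP response element. CHAC2, the paralog of CHAC1, fell 2.11-fold from 12.0 ± 0.956 to 5.67 ± 0.549 CPM (SD, n = 3, edgeR adjusted p = 2.8e-06). TRIB1 rose 2.06-fold from 9.16 ± 0.286 to 18.9 ± 1.88 CPM, and TRIB2 rose 1.78-fold from 10.7 ± 0.949 to 19.1 ± 1.63 CPM.

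Levels were compared between genes as CPM per kilobase of exon. The levels of DDIT3 and ATF5 are uncertain here, because 39.6% and 23.7% of their exon bases are shared with other genes. In DMSO, ATF4 was the most abundant at 149.6 ± 17.2 CPM per kilobase (SD, n = 3), followed by CEBPB at 57.6 ± 0.559, PPP1R15A at 39.5 ± 6.01 and ATF5 at 13.0 ± 0.781. EIF2AK4 (9.64 ± 0.560) and TRIB3 (8.88 ± 1.07) overlapped, and DDIT3 came next at 6.91 ± 0.279. CHAC1 (4.90 ± 1.40), EIF2AK3 (4.41 ± 0.677) and ATF3 (4.35 ± 0.574) overlapped at the bottom. In doxorubicin ATF4 stayed first at 171 ± 3.99 CPM per kilobase, with CEBPB at 137 ± 16.9 and PPP1R15A at 90.6 ± 6.89. DDIT3 came next at 65.2 ± 3.63, above TRIB3 (30.2 ± 0.901), ATF3 (28.7 ± 0.296) and CHAC1 (24.3 ± 3.82). ATF5 (16.7 ± 2.04) and EIF2AK4 (15.4 ± 0.586) overlapped, and EIF2AK3 was last at 5.95 ± 0.0747. The order of the abundant genes was thus alike in both groups, while DDIT3, TRIB3, ATF3 and CHAC1 came to lie above ATF5 and EIF2AK4, and EIF2AK3 did not.

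The genes most like ATF4 and DDIT3 were sought among 9781 abundant protein-coding genes by the root-mean-square distance over the 6 libraries between log2 profiles, each centred on its own DMSO mean. For ATF4 they were FHL3 (distance 0.025), TRMT61A (0.033) and SRF (0.034). For DDIT3 they were PHLDA3 (0.071), MORC4 (0.080) and SUSD6 (0.098), with log2 fold changes of 3.25, 3.27 and 3.07. With 1 contrast in 6 libraries, this distance mostly reflects a like fold change.

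Of 21 other genes for eIF2, its exchange factor eIF2B, its kinases, its phosphatases and linked factors, 4 were called higher, 7 lower and 10 were not called. This list leaves out EIF2AK3, EIF2AK4 and PPP1R15A, which are among the 10 regulators. All of these were called higher, PPP1R15A by 2.29-fold. The median log2 fold change of the 21 was -0.08 against -0.0013 over all tested genes. Of the 21, 19.0% were called higher and 33.3% lower, against 32.7% and 32.0% of all tested genes. The 4 called higher were IMPACT, a GCN2 inhibitor (1.24-fold, from 22.8 ± 1.16 to 28.3 ± 0.578 CPM), EIF2S2, the beta subunit of eIF2 (1.19-fold), EIF2B2 (1.15-fold) and GCN1, the ribosome-bound activator of GCN2 (1.12-fold). Without DMSO replicate 1 only 2 were called higher, with log2 fold changes of 0.18 for EIF2B2 and 0.14 for GCN1, which lost their call. Among those that fell were DNAJC3, an inhibitor of PERK (1.62-fold, from 68.3 ± 6.06 to 42.3 ± 5.38 CPM), DELE1, which relays mitochondrial stress to HRI (1.48-fold, from 42.0 ± 1.95 to 28.3 ± 3.19 CPM), and EIF2A, an alternative initiation factor (1.33-fold). No gene of this list changed 2-fold.

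Known ATF4 target genes mostly rose. Of 35 listed, 33 were tested, 22 were called higher (12 at least 2-fold), 4 lower and 7 were not called, and their median log2 fold change was 0.73. Of all tested genes, 32.7% were called higher, 14.2% at least 2-fold, and 32.0% lower. The largest rises among those with a mean log2 CPM over 1 were in GDF15, a stress cytokine (from 5.06 ± 0.755 to 703 ± 83.9 CPM), SESN2, a brake on mTORC1 (7.88-fold, from 31.3 ± 4.51 to 247 ± 29.9 CPM), and NUPR1, a stress-induced chromatin protein (6.28-fold, from 23.4 ± 2.81 to 147 ± 7.11 CPM). GDF15 and SESN2 are also p53 targets. The 4 that fell were the amino acid transporter genes SLC7A1 (1.39-fold) and SLC38A2 (1.33-fold), the mitochondrial serine hydroxymethyltransferase gene SHMT2 (1.31-fold) and the tRNA exporter gene XPOT (1.22-fold). ASNS, asparagine synthetase, was low, from 1.05 ± 0.468 to 2.48 ± 0.470 CPM, and 44.6% of its exon bases lie in exons of a same-strand gene, so its level is uncertain. Not tested were FGF21, with 0 counts in all libraries, and INHBE.

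**Figure D4:**
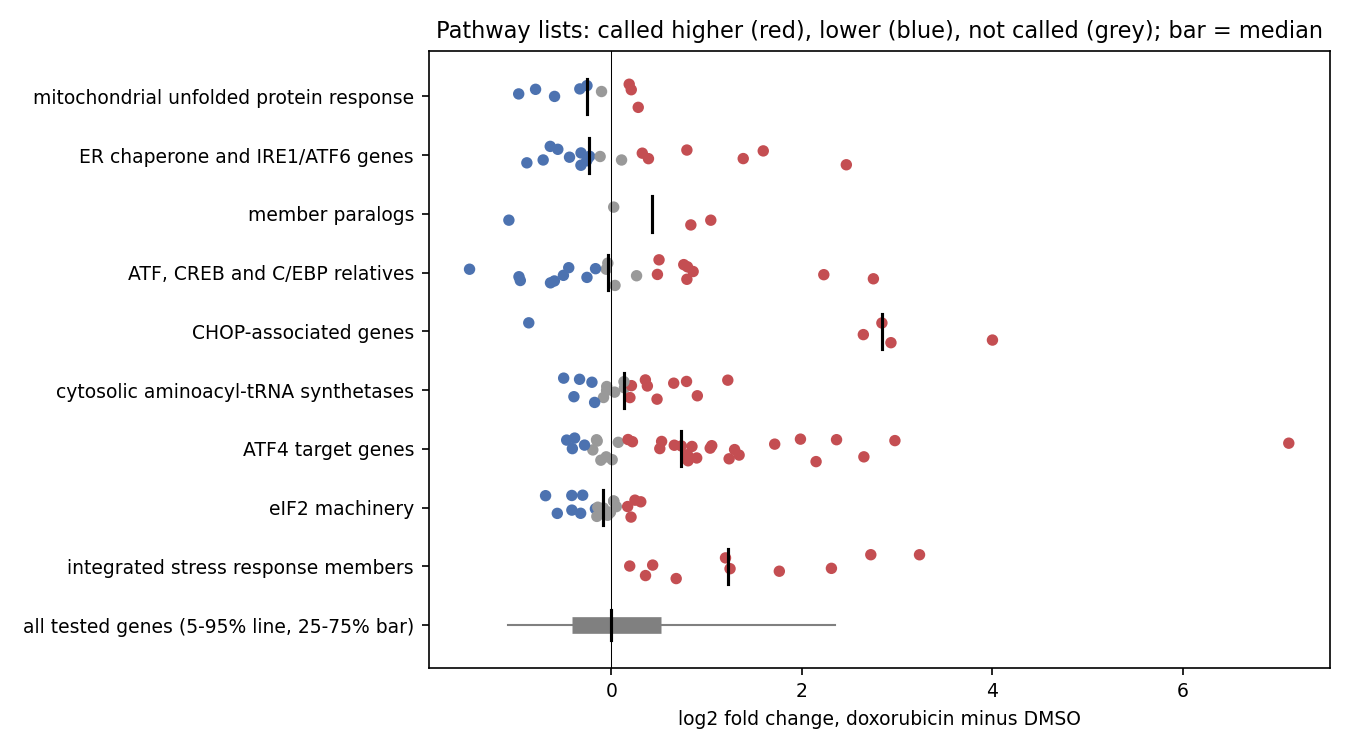
Log2 fold change (doxorubicin minus DMSO) of every tested gene in the 10 genes and in 8 pathway lists, red where called higher, blue where called lower and grey where not called, with the median as a black bar and the spread of all tested genes in the bottom row. The 10 genes all lie to the right of 0, with a median of 1.22, while the eIF2 machinery lies on both sides with a median of -0.08.

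The cytosolic aminoacyl-tRNA synthetases charge tRNAs, and ATF4 is known to induce many of their genes. Of 20, 9 were called higher, 5 lower and 6 were not called, and their median log2 fold change was 0.13. The shares were 45% higher and 25% lower, against 32.7% and 32.0% of all tested genes. SARS1 rose 2.33-fold from 199 ± 13.7 to 464 ± 16.1 CPM, CARS1 1.87-fold from 55.0 ± 2.14 to 103 ± 4.05 CPM and AARS1 1.73-fold from 401 ± 18.0 to 693 ± 18.5 CPM. FARSB (1.42-fold), VARS1 (1.31-fold), QARS1 (1.26-fold), FARSA (1.15-fold) and MARS1 (1.13-fold) fell. Without DMSO replicate 3 only 3 were called lower. Promoter windows were at hand for 16 synthetase genes, and 7 held the composite element TGATGNAA: AARS1, CARS1, GARS1, IARS1, MARS1, NARS1 and TARS1. Of these 7, 6 were called higher and MARS1 was called lower, and their median log2 fold change was 0.38. Of the 9 without it, 2 were called higher, 3 lower and 4 were not called, with a median of -0.05. Among the ATF4 target genes described above the split went the other way. There 4 of 7 with the element were called higher (median log2 fold change 0.51) and 13 of 18 without it (median 0.83). Over all tested genes with a window, 38.9% of 306 with the composite element were called higher and 32.6% of 10816 without it. For the AP-1 element the shares were 41.9% of 817 with it and 32.1% of 10305 without it. These splits were looked at after the values were seen, and none was tested.

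Of 5 genes listed as associated with CHOP, 4 rose and 1 fell, where 32.7% of all tested genes were called higher and 32.0% lower. Whether CHOP acted on them was not tested. BBC3, which encodes PUMA, rose 16.0-fold from 6.26 ± 0.234 to 100.3 ± 12.6 CPM, TNFRSF10B, a TRAIL receptor gene, 7.65-fold from 87.2 ± 5.98 to 667 ± 8.20 CPM, BCL2L11, which encodes BIM, 7.16-fold from 4.71 ± 1.13 to 33.7 ± 4.01 CPM, and PMAIP1, which encodes NOXA, 6.26-fold from 25.99 ± 4.40 to 163 ± 26.1 CPM. BBC3, TNFRSF10B and PMAIP1 are p53 targets too. ERO1A, an oxidase of the endoplasmic reticulum, fell 1.83-fold from 72.3 ± 6.61 to 39.6 ± 2.64 CPM.

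Among 24 relatives of the leucine zipper factors, 21 were tested, 8 were called higher, 9 lower and 4 were not called, and their median log2 fold change was -0.04. The shares, 38.1% higher and 42.9% lower, stand beside 32.7% and 32.0% of all tested genes. The largest rises in this list were in BATF and BATF2, which lie under the abundance limit for named genes. Above it, NFIL3 rose 1.81-fold, CEBPG, a dimer partner of ATF4, 1.74-fold from 40.9 ± 3.43 to 71.1 ± 0.538 CPM, and XBP1 1.73-fold. CREB3L1 fell 2.81-fold from 171 ± 11.6 to 60.7 ± 5.01 CPM, CREB3L4 1.96-fold and BATF3 1.56-fold.

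Genes of the other arms of the unfolded protein response were taken as a further list. Of 18 chaperone and IRE1 or ATF6 genes, 6 were called higher and 10 lower, and their median log2 fold change was -0.24. That is 33.3% higher, near the 32.7% of all tested genes, and 55.6% lower, against 32.0%. ERN1, which encodes the sensor IRE1, rose 5.53-fold from 18.3 ± 2.54 to 101 ± 8.77 CPM, the cochaperone gene DNAJB9 rose 3.02-fold and EDEM1, a degradation factor, 2.61-fold. CRELD2 fell 1.85-fold, HYOU1 1.64-fold and PDIA4 1.56-fold, all genes for folding factors of the endoplasmic reticulum. The ER stress response element (CCAAT, 9 bases of any kind, then CCACG), through which ATF6 acts, was found in 6 of the 18 genes. Of all genes with a window, tested or not, 0.0924% held it. Of those 6, 5 were called lower, among them HSPA5, the chaperone BiP (1.19-fold), and XBP1 was higher. Of the 12 list genes without it, 5 were higher and 5 lower. Of 16 tested genes with it over the whole table, 6 were higher and 6 lower. These 16 include the 6 list genes, which make up 1 of the higher and 5 of the lower ones. None of the 10 regulators held it. Of 9 genes of the mitochondrial unfolded protein response, 3 were called higher (HTRA2, HSPA9 and LONP1, none over 1.22-fold) and 5 lower, against 32.7% and 32.0% of all tested genes. The 5 were the protease gene CLPP (1.96-fold), the chaperone genes HSPD1 (1.74-fold), TRAP1 (1.51-fold) and HSPE1 (1.26-fold), and CLPX (1.20-fold), whose product unfolds proteins for CLPP. Without DMSO replicate 1 only 1 was called higher.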

How the data were processed

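The authors deposited 1 table of unnormalized gene counts with a column for each of 6 libraries, and its columns follow featureCounts output per the file headers. STAR, SAMtools and featureCounts of Subread are named in the submitters' processing notes, with build GRCh38 (hg38). The libraries were unstranded, per the labels' protocols. Versions, and the handling of reads in overlapping genes, are not given in the sources used here. The table also gives exon positions and, as other information, the summed exon length deposited per gene, which was used for levels per kilobase. Of 58299 IDs, 57717 had a symbol in the gene name table, and GENCODE release 29 (58179 IDs) gave gene types. Coordinates are 1-based, from the lowest to the highest exon base. Columns of other samples numbered 0.

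The test was that of edgeR 4.0.16, run in R 4.3.3 (filterByExpr with minimum count 10 and minimum total 15, TMM, robust quasi-likelihood F test, two-sided, no covariates, Benjamini-Hochberg over 15358 genes). The SE is |log2 fold change| over the root of F, an approximation. The procedure was tested on simulated counts. Each library was treated as 1 replicate. Replicates of a group differed by more than counting noise (chi-square per degree of freedom 2.82 to 9.39), which does not show that they were separate cultures. Exon overlaps were computed from the table's exon positions on both strands. Motifs were searched in RefSeq windows.

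The members and lists were chosen with earlier results of these data known. From each list the text names the 3 called genes with the largest rise and the 3 with the largest fall among those whose mean log2 CPM reaches 1, and all genes of a direction that holds 5 or fewer. Genes named for motifs, BATF, BATF2, ASNS, EIF2AK1, EIF2AK2, PPP1R15B and HSPA5 were named after their values were seen. As alternatives, scaling was by RLE, by upper quartile or by library totals only, and DESeq2 1.42.0, no filter, a filter of 1 CPM in 3 libraries, a replicate block, the 50 most abundant genes left out, and each library left out in turn were also run.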

Additional observations from a re-analysis of the deposited data

How the results depend on the processing

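Each count, and the log2 fold changes of the 10 genes and of 60 others, were recomputed under 14 alternatives, 6 of which left out a library. The count of regulators called higher was 10 in 9 alternatives and 9 in 5, and 0 were lower in any of them. ATF4 was the gene lost: its log2 fold change ranged from 0.11 to 0.28 when a library was left out and was 0.18 with DESeq2 (adjusted p = 0.055), and the cause was not tested. The other 9 kept their call and direction in all 14, none of which changed how reads in shared exon bases were counted. With no filter, 2 genes of the eIF2 machinery were called higher. Leaving out a library gave 2 to 4 of that list called higher and 1 to 3 mitochondrial genes called higher. Of the tRNA synthetases, 7 to 11 were then called higher and 3 to 5 lower. Of the ATF4 target genes, 20 to 22 were called higher and 4 to 6 lower. Of the 60 other genes compared, 50 kept their call and sign throughout and 7 lost their call in at least 1 alternative (EIF2B2, GCN1, FARSA, MARS1, LONP1, HTRA2 and NARS1). BATF, BATF2, the cell type markers and the genes most like ATF4 and DDIT3 were not among the 60. Values that were not called changed sign for EIF2AK1 with no filter (-0.0054), and the log2 fold change of PPP1R15B with no filter was -0.0059. When a library was left out, EIF2AK2 lay between -0.0091 and 0.12 and PPP1R15B between -0.022 and 0.041. The log2 change of the ratio of EIF2AK3 to EIF2AK4 was -0.29 to -0.16 without a library. The titles number the replicates alike in both groups, but same-numbered libraries did not deviate together (correlations 0.053, -0.030 and 0.048), and not every library correlated best with its own number. With the replicate block, 10 regulators were called higher, and 5003 genes were higher and 4917 lower, and the pairing changed no call among the 10. With library totals only, 5320 genes were higher and 4571 lower. Using only bases before the start, 3.16% of promoter windows held the composite element in place of 3.63%, 1.64% the cAMP response element in place of 1.84%, and 6.59% the AP-1 element in place of 7.73%. Depth limits the low genes: CHAC1 rested on 556 counts over the DMSO libraries and DDIT3 on 499.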
